A study of Mus musculus with 13 samples.

Results

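The genes described here are 9 transcription factors that mark the small intestinal epithelium, Cdx1, Cdx2, Hnf4a, Hnf4g, Gata4, Gata6, Klf5, Elf3 and Isx. They were taken by symbol from 2 gene count tables, and all 9 were found among the 21420 gene identifiers that both tables list. The question put to them was whether the factors of the intestinal programme keep their levels when the Polycomb repressive complex PRC2 is lost and factors of foreign lineages are released. Bulk RNA sequencing had been done on 13 mouse libraries in 5 groups. Eed KO crypts (Eed-/-, 3 libraries), Ezh2 KO crypts (Ezh2-/-, 3 libraries) and WT crypts (3 libraries) came from C57BL/6-FVB mixed mice. All of these mice received beta-naphthoflavone for 6 weeks from 6 weeks of age and were 12 weeks old at the end. Eed KO organoids (Eed-/-, C57BL/6-FVB, 2 libraries) and WT organoids (FVB, 2 libraries) are crypt cultures grown in Matrigel and treated with beta-naphthoflavone for 10 days, so strain and genotype cannot be told apart between them. Where the labels name the driver, floxed alleles were removed with AhCre, a Cre recombinase under a drug-inducible cytochrome promoter that is known to act in crypt cells but hardly in Paneth cells. Library names give AhCre for the run 440 crypts, WT included, and for both organoid groups; those of the run 385 crypts do not mention it. The labels do not tell whether replicate libraries were made from different mice or cultures. The p-values therefore measure the spread between libraries, which may be technical.

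PRC2 places a repressive methyl mark on histone H3 at silent developmental genes, where Eed is a core subunit that the complex cannot do without and Ezh2 is a catalytic subunit with a related enzyme, Ezh1. The caudal homeobox factors Cdx2 and Cdx1 set and hold intestinal identity, and loss of Cdx2 is known to let stomach features appear in mouse intestine. The nuclear receptors Hnf4a and Hnf4g act together in enterocytes on brush border and lipid genes. Gata4 marks the upper small intestine and holds down ileal genes there, while Gata6 is present along its length. Klf5 is a zinc finger factor of the proliferating crypt, Elf3 is an epithelial Ets factor, and Isx is an intestinal homeobox factor known as a target of Cdx2 that holds down genes of carotenoid uptake and cleavage.

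Library depth lay between 11421666 and 18300644 counts. The Eed transcript had 15.9 to 25.0 CPM (counts scaled to library size by the trimmed mean of M values) in Eed KO crypts and 19.2 to 30.5 CPM in Eed KO organoids, against 50.04 to 60.3 CPM in WT crypts and 62.4 to 73.4 CPM in WT organoids. The Ezh2 transcript had 17.7 to 21.8 CPM in Ezh2 KO crypts, against 72.2 to 95.2 CPM in WT crypts. Libraries were sequenced in 2 runs, named 385 and 440 in the labels. The Ezh2 KO libraries all belong to run 440, the organoids all to run 385, and run 440 holds 1 Eed KO and 1 WT crypt library. The Eed KO crypt library of run 440 stood apart from the other Eed KO crypt libraries for most of the factors, so results are given with and without it. In bulk libraries, fewer cells of a type and less RNA per cell cannot be told apart.

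All 9 factors were expressed in WT crypts. Per kilobase of annotated exon, Hnf4a had the highest mean level in WT crypts, 223 ± 21.9 CPM per kb (SD, n = 3), which placed it 144th of 21211 genes. Elf3 followed with 173 ± 12.8 CPM per kb, and the ranges of these first 2 factors over the WT libraries did not overlap. Cdx1 at 97.2 ± 35.9 and Cdx2 at 87.0 ± 8.57 CPM per kb came next, with overlapping ranges. Hnf4g at 57.3 ± 16.1 and Isx at 52.7 ± 12.9 CPM per kb also overlapped, as did Klf5 at 33.3 ± 10.9 and Gata4 at 29.8 ± 4.36 CPM per kb. Gata6 had the lowest mean of the 9, 12.0 ± 1.53 CPM per kb. In Eed KO crypts the order changed. Elf3 had 184 ± 61.0 CPM per kb there and the highest mean of the 9, Hnf4a had 93.0 ± 42.6 CPM per kb, and the mean of each of the other 7 lay at or below that of Cdx1, 28.7 ± 19.4 CPM per kb.

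**Figure D1:**
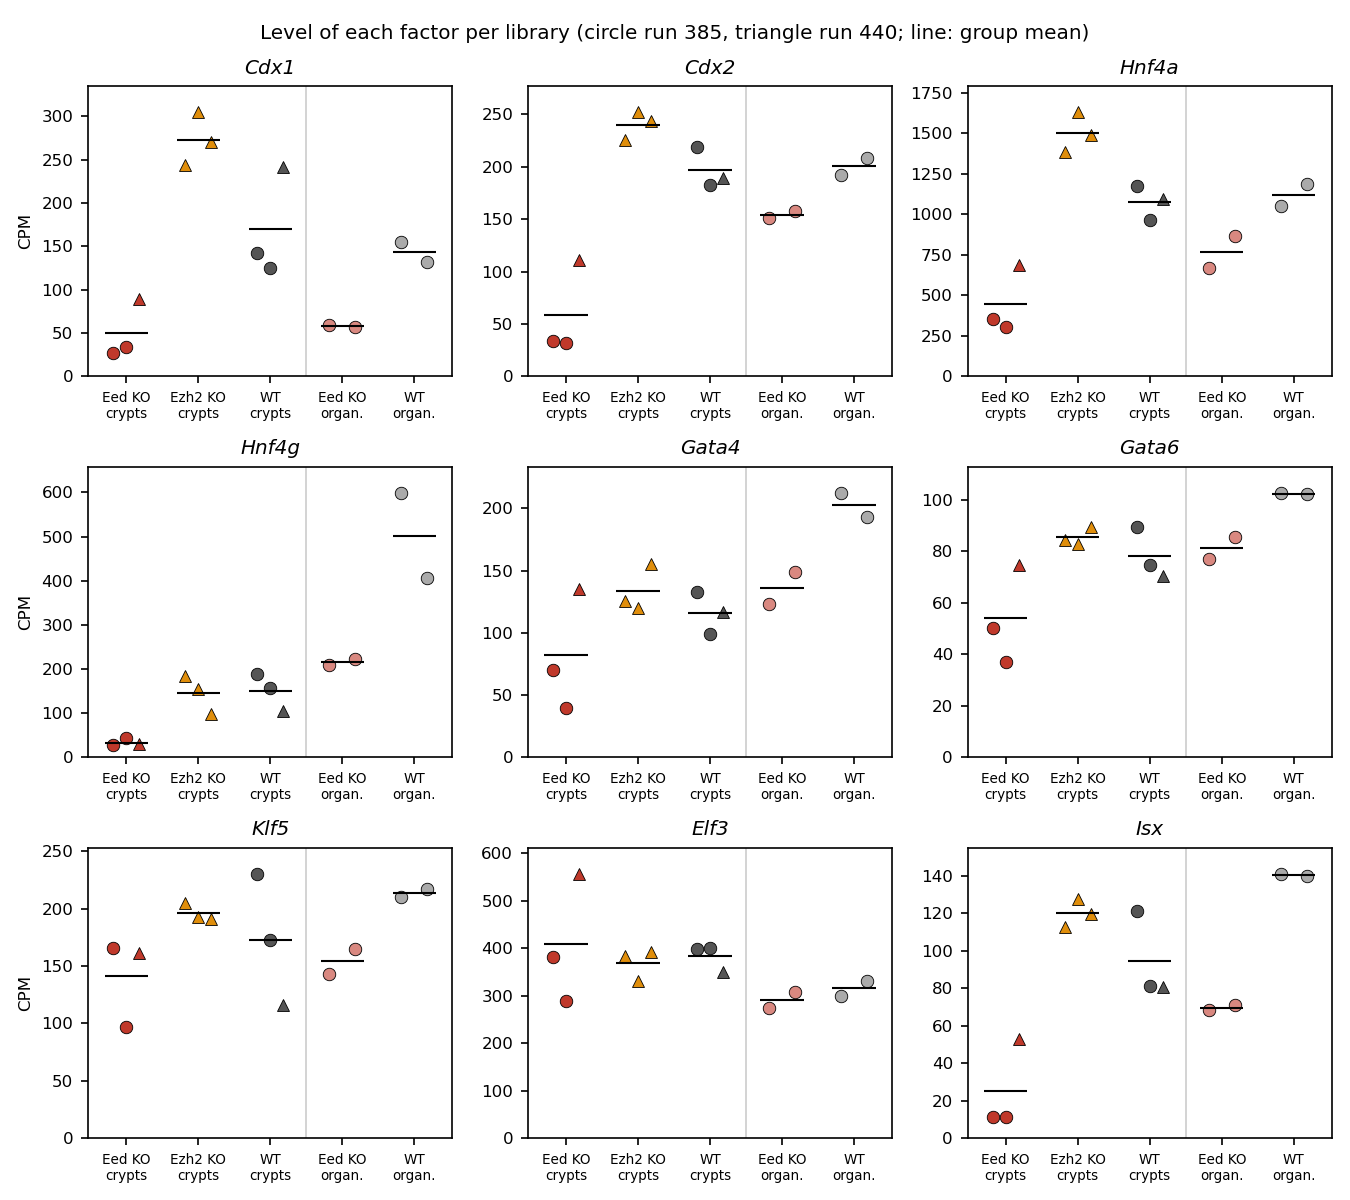
Level of each factor in CPM (y axis, from 0) in every library of the 5 groups (x axis), with circles for run 385, triangles for run 440 and a line at the group mean. In Eed KO crypts Cdx1, Cdx2, Hnf4a, Hnf4g and Isx lie below every WT crypt library, and for all of these but Hnf4g the triangle lies above both circles.

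In Eed KO crypts 5 of the 9 factors were lower than in WT crypts and none was higher. The caudal factors Cdx1 and Cdx2, both Hnf4 receptors and Isx fell by 2.55- to 4.96-fold, while the Gata factors, Klf5 and Elf3 did not pass the test. A gene was called where edgeR's quasi-likelihood test over all 9 crypt libraries, with the run as a term, gave an adjusted p (Benjamini-Hochberg over all genes tested) under 0.05. Over the 14406 genes tested, 24.0% were called, 10.6% lower and 13.4% higher in Eed KO crypts. Every Eed KO library was below every WT library for the same 5 factors, as for 13.3% of all genes, and above it for no factor, against 17.3% of all genes. The median log2 fold change was -1.35 over the 9 factors and -0.04 over all genes tested.

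Cdx2, the caudal factor that holds intestinal identity in the adult, had 33.8, 31.6 and 111 CPM in Eed KO crypts, against 219, 182 and 189 CPM in WT crypts (here and below in the order run 385 library 1, run 385 library 2, run 440 library 1). All Eed KO libraries were below all WT libraries, and the run 440 library was the least reduced. The log2 fold change was -2.005 ± 0.34 (SE; edgeR adjusted p = 0.00365), a 4.01-fold lower level in Eed KO crypts. Cdx1, its paralogue, had 27.5, 34.1 and 89.2 CPM in Eed KO crypts, against 143, 126 and 242 CPM in WT crypts. Here run 440 was higher in both genotypes, and the groups did not overlap. Its log2 fold change was -1.89 ± 0.19 (edgeR adjusted p = 0.000368).

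Isx had the lowest fitted log2 fold change of the 9 in Eed KO against WT crypts, although by group means of CPM Hnf4g was lower relative to WT. It had 11.6, 11.2 and 53.0 CPM in Eed KO crypts, against 121, 81.4 and 80.7 CPM in WT crypts. The run 385 Eed KO libraries were near each other and far below WT, while the run 440 Eed KO library lay closer to its WT counterpart. The log2 fold change was -2.31 ± 0.48 (edgeR adjusted p = 0.00894). With library numbers as a block in a fit of Eed KO and WT crypts alone, the value was -2.32 and no longer passed (adjusted p = 0.0739); it also missed the threshold without either of the run 385 Eed KO libraries.

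Of the nuclear receptors, Hnf4g had 27.4, 43.5 and 29.5 CPM in Eed KO crypts, against 189, 158 and 105 CPM in WT crypts. Unlike the other fallen factors, it was as low in the run 440 Eed KO library as in run 385. The log2 fold change was -2.13 ± 0.27 (edgeR adjusted p = 0.00101). Hnf4a had 355, 307 and 685 CPM in Eed KO crypts, against 1173, 965 and 1097 CPM in WT crypts. The groups were clear of each other, and Hnf4a was second among the 9 per kilobase in Eed KO crypts and first in WT crypts. Its log2 fold change was -1.35 ± 0.23 (edgeR adjusted p = 0.0035), a 2.55-fold lower level.

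The remaining 4 factors had overlapping ranges. Gata4 had 70.5, 39.6 and 136 CPM in Eed KO crypts, against 133, 99.2 and 117 CPM in WT crypts (log2 -0.64 ± 0.31, edgeR adjusted p = 0.181). Gata6 had 50.2, 37.0 and 74.4 CPM in Eed KO crypts, against 89.3, 74.5 and 70.4 CPM in WT crypts (log2 -0.57 ± 0.22, edgeR adjusted p = 0.0971). For both Gata factors the run 385 Eed KO libraries were below every WT library and the run 440 one was not. The 93 bases of exon that Gata6 shares with an antisense transcript, and the 162 that Elf3 shares with one, could hold reads of either gene if strand was not used in counting. Klf5 had 166, 96.8 and 161 CPM in Eed KO crypts, against 230, 173 and 116 CPM in WT crypts, with a log2 fold change of -0.25 and a 95% interval of -0.87 to 0.37. Elf3 had 381, 289 and 556 CPM in Eed KO crypts, against 400, 400 and 351 CPM in WT crypts. Its log2 fold change was 0.06 with an interval of -0.43 to 0.54, which leaves out a fall of the size of the 5 called factors.

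**Figure D2:**
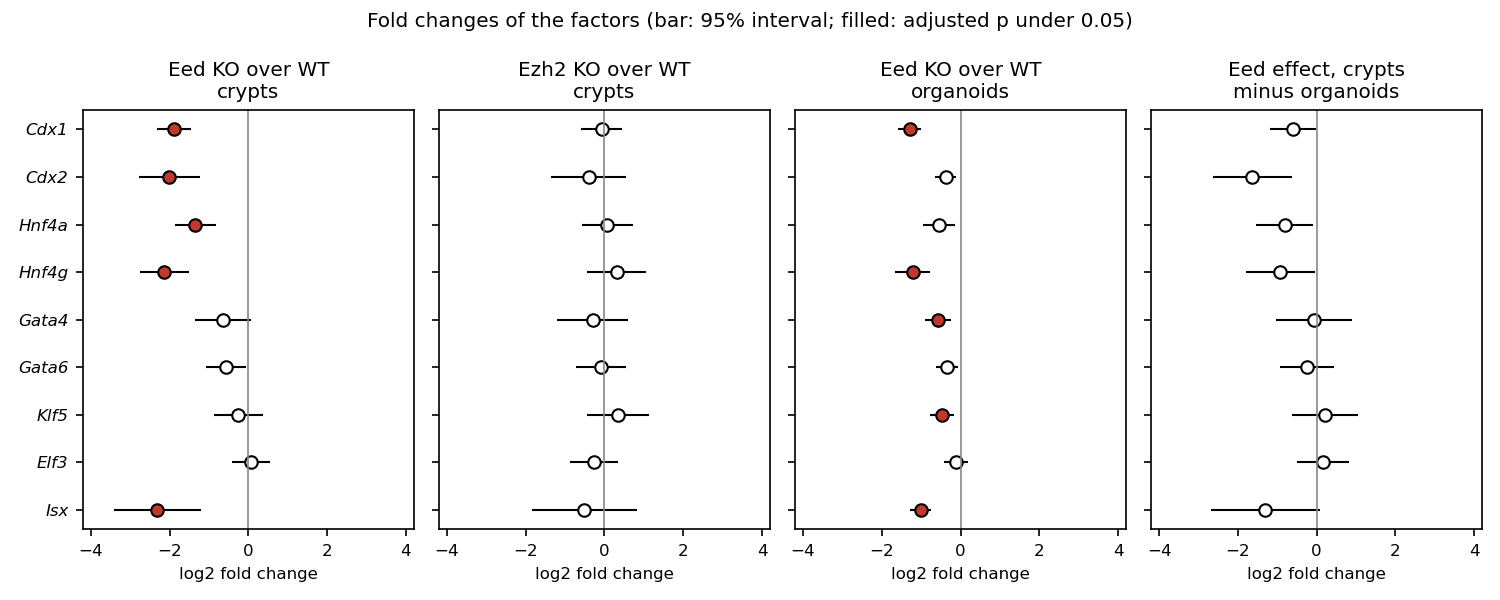
Log2 fold change of each factor (x axis) with its 95% interval, for Eed KO over WT crypts, Ezh2 KO over WT crypts, Eed KO over WT organoids and the difference of the Eed effects. Filled points have an adjusted p under 0.05: 5 factors in Eed KO crypts, none in Ezh2 KO crypts, 5 in Eed KO organoids and none for the difference.

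The size of the falls differed between runs. Within run 385, with 2 Eed KO and 2 WT crypt libraries, the log2 ratio of mean CPM was -3.16 for Isx, -2.62 for Cdx2, -2.29 for Hnf4g, -2.12 for Cdx1 and -1.69 for Hnf4a. Within run 440, with 1 library each and so no replicate check, it was -0.61 for Isx, -0.77 for Cdx2, -1.84 for Hnf4g, -1.44 for Cdx1 and -0.68 for Hnf4a. For these 5 factors every Eed KO library lay below every WT library, so a ratio below 0 in both runs follows from that and is no further check. The mitochondrial share of counts also moved with run and genotype. It was 16.5% and 17.99% in the run 385 Eed KO crypt libraries, against 12.4% and 14.5% in their WT libraries. In run 440 it was 3.71% in the Eed KO library, against 8.65% in the WT library, and its part in the run difference was not tested. Gata4 (-1.08 in run 385, 0.22 in run 440), Gata6 (-0.91 and 0.08), Klf5 (-0.62 and 0.47) and Elf3 (-0.25 and 0.66) had the opposite sign in the runs. Without the run 440 Eed KO library, 7 factors were called lower: the same 5, with log2 fold changes of -3.23 for Isx, -2.69 for Cdx2, -2.36 for Hnf4g, -2.19 for Cdx1 and -1.76 for Hnf4a, and Gata4 at -1.15 (edgeR adjusted p = 0.0122) and Gata6 at -0.98 (edgeR adjusted p = 0.00481).

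**Figure D3:**
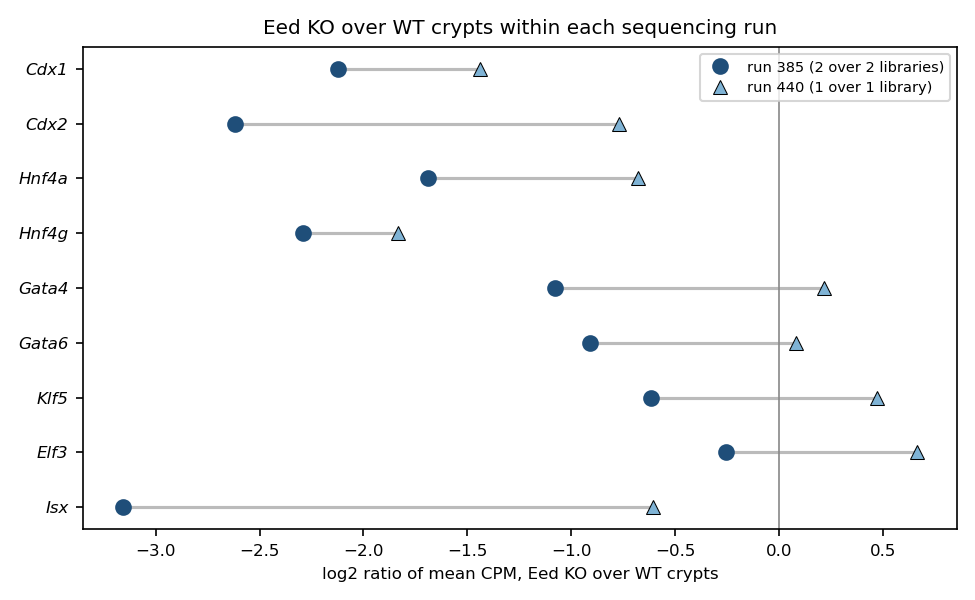
Log2 ratio of mean CPM, Eed KO over WT crypts (x axis), for each factor within run 385 (circles, 2 over 2 libraries) and run 440 (triangles, 1 over 1 library). Every triangle lies to the right of its circle, and for Gata4, Gata6, Klf5 and Elf3 the points lie on opposite sides of 0.

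Markers of cell types moved between these groups as well. The summed level of 6 proliferation markers was 335 to 672 CPM in Eed KO crypts, against 1486 to 1850 CPM in WT crypts, and all 6 (Mki67, Top2a, Ccnb1, Birc5, Ccna2, Cdk1) were called lower. The sum of 6 Paneth cell markers was 20860 to 28960 CPM in Eed KO crypts, against 80000 to 100600 CPM in WT crypts, with 3 of 6 called lower. The sum of 10 villus enterocyte markers was 539 to 3660 CPM in Eed KO crypts, against 940 to 2293 CPM in WT crypts, with 1 of 10 (Krt20) called lower, a call lost with the replicate block (adjusted p = 0.0682), and the highest sum was that of the run 440 Eed KO library. The sum of 7 general epithelial markers was 4694 to 8851 CPM in Eed KO crypts, with the highest again in the run 440 library, against 6321 to 8032 CPM in WT crypts. Of these 7, Epcam alone was called, with a log2 fold change of -0.71 (edgeR adjusted p = 0.00689; with the block -0.73 and adjusted p = 0.0831). The 8 immune markers summed to 63.9 to 164 CPM in Eed KO crypts, against 67.5 to 74.5 CPM in WT crypts, with 3 of 8 called higher. With the block the calls of Itgax (adjusted p = 0.0511) and Tyrobp (adjusted p = 0.105) were lost. The 8 mesenchymal markers summed to 51.0 to 108 CPM in Eed KO crypts, against 16.7 to 380 CPM in WT crypts, with none called. No immune or mesenchymal marker was at 0 in a whole crypt group. The part of these cell types in the falls was not tested.

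RefSeq promoter windows (GRCm38.p6, 250 bases before to 50 after a start) were on hand for 4 of the 9 factors, Cdx2, Isx, Hnf4a and Elf3. They are shown because Cdx2 and Isx fell the furthest of these 4 and moved together over the libraries while Elf3 did not pass the test, and because PRC2 is known to sit mostly at CpG-rich promoters. The stretch from base -250 to base -101 of each is given on the gene's strand, with every CpG in capitals, for Cdx2 (chr5:147307350-147307499, minus strand), Isx (chr8:74872924-74873073, plus strand) and Elf3 (chr1:135258573-135258722, minus strand).
Cdx2: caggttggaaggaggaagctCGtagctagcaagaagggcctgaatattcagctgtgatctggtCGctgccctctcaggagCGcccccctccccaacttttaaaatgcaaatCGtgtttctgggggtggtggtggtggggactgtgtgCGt
Isx: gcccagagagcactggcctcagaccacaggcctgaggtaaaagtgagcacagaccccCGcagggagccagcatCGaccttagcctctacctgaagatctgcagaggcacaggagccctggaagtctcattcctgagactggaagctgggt
Elf3: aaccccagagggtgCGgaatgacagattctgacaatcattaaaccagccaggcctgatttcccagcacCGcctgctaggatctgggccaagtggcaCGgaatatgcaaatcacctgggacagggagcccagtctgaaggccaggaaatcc
Over the whole window of 300 bases Cdx2 held 18 CpG, Elf3 12, each of the 2 Hnf4a promoters 4 and Isx 2, against a median of 7 over 32851 promoters. The share of all promoters with fewer CpG was 70.3% for Cdx2, 60.4% for Elf3, 31.4% for each Hnf4a promoter and 14.1% for Isx. Cdx2 and Isx, the 2 factors whose levels were most alike, lay above and below the median of all promoters. Any part of CpG content in the levels was not tested. A caudal factor motif (TTTATNG, in 10.9% of all promoters), an Hnf4 motif (CAAAGNNCA, in 6.4%) and a Gata motif (GATAAG, in 7.4%), each searched on both strands, had no match in any of the 5 windows.

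Loss of Ezh2 called none of the 9 factors in crypts, where 0.0208% of the 14406 genes were called, 3 in all. The log2 fold changes of Ezh2 KO over WT crypts lay between -0.51 (Isx) and 0.34 (Klf5), with edgeR adjusted p between 0.786 and 0.956. Cdx2 had 225, 252 and 244 CPM in Ezh2 KO crypts, against 219, 182 and 189 CPM in WT crypts, so every Ezh2 KO library was above every WT library. The same held for Cdx1 (244, 304 and 270 CPM in Ezh2 KO crypts, against 143, 126 and 242 CPM in WT crypts) and for Hnf4a (1387, 1629 and 1490 CPM in Ezh2 KO crypts, against 1173, 965 and 1097 CPM in WT crypts). Of all genes tested, 10.6% had every Ezh2 KO library above every WT library and 9.43% every one below, and the run term of the fit, not this order, sets the fold changes of -0.40 ± 0.42 for Cdx2, -0.07 ± 0.23 for Cdx1 and 0.08 ± 0.29 for Hnf4a. The 95% intervals were -1.36 to 0.56 for Cdx2, -1.85 to 0.83 for Isx and -0.44 to 1.06 for Hnf4g, so the fitted falls of these factors in Eed KO crypts over both runs lie outside them. The smaller Eed KO differences within run 440, -0.77 for Cdx2 and -0.61 for Isx, lie inside. Against the 1 WT library of run 440 alone, all 9 log2 fold changes were above 0, from 0.12 (Elf3) to 0.80 (Klf5). The Paneth marker sum was 32160 to 63490 CPM in Ezh2 KO crypts, against 80000 to 100600 CPM in WT crypts, and that of the villus enterocyte markers was 2810 to 6124 CPM in Ezh2 KO crypts, against 940 to 2293 CPM in WT crypts; their part in these values was not tested. Without the run 440 WT library the contrast rests on the run difference among the Eed KO libraries, and Cdx2 (-1.50, edgeR adjusted p = 0.0173) and Isx (-1.98, edgeR adjusted p = 0.0123) were then called lower.

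Set against Ezh2 KO crypts, Eed KO crypts had lower levels of the same 5 factors. Over the 14406 genes 20.0% were called in this comparison, 8.05% lower and 12.0% higher in Eed KO crypts. Hnf4g had the lowest fitted log2 fold change, at 33.5 ± 8.76 CPM in Eed KO crypts and 146 ± 43.3 CPM in Ezh2 KO crypts (SD, n = 3 each; log2 -2.44 ± 0.34, edgeR adjusted p = 0.00235). Cdx1 averaged 50.3 ± 33.9 CPM in Eed KO crypts and 273 ± 30.2 CPM in Ezh2 KO crypts (log2 -1.82 ± 0.23, edgeR adjusted p = 0.00152). Hnf4a averaged 449 ± 205 CPM in Eed KO crypts and 1502 ± 122 CPM in Ezh2 KO crypts (log2 -1.43 ± 0.28, edgeR adjusted p = 0.009). Every Eed KO library was below every Ezh2 KO library for these 3 factors and for Cdx2 (log2 -1.61 ± 0.39, edgeR adjusted p = 0.0219) and Isx (log2 -1.80 ± 0.52, edgeR adjusted p = 0.0422). The call of Isx was lost under 7 of 12 alternatives and that of Cdx2 under 3. Gata6 and Klf5 were also lower in every Eed KO library than in every Ezh2 KO library but missed the threshold. That made 7 of the 9, against 19.5% of all genes below and 20.6% above. Without the run 440 Eed KO library, when the contrast rests on the run difference among WT libraries, Gata6 (edgeR adjusted p = 0.0208) and Klf5 (edgeR adjusted p = 0.0349) were called. Between these groups 6 of 6 proliferation markers, 2 of 6 Paneth markers and 1 of 10 villus enterocyte markers were called lower in Eed KO crypts, and 4 of 8 immune and 2 of 8 mesenchymal markers higher. The villus enterocyte markers summed to 539 to 3660 CPM in Eed KO crypts and 2810 to 6124 CPM in Ezh2 KO crypts. The part of these cell types was not tested. The 2 comparisons share the Eed KO libraries, so they are not independent.

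In organoids, where immune and mesenchymal markers were near 0, 5 of the 9 factors were called lower in Eed KO than in WT libraries and none higher. The Eed KO organoids are C57BL/6-FVB and the WT organoids FVB, so strain and genotype cannot be told apart in any of these organoid differences. The called factors were Cdx1, Hnf4g, Isx, Gata4 and Klf5, and Cdx2 and Hnf4a missed the threshold. Over the 12958 genes tested 18.2% were called, 4.63% lower and 13.5% higher in Eed KO organoids. The median log2 fold change was -0.54 over the 9 factors and -0.005 over all genes tested. All 9 fitted values were below 0, and for every factor but Elf3 both Eed KO libraries were below both WT libraries, as they were for 28.0% of all genes, while 31.3% had both above. The 8 immune markers summed to 1.37 to 1.91 CPM in Eed KO organoids and 0.752 to 0.771 CPM in WT organoids, with Cd52, Tyrobp, Itgax and Cd3e at 0 in both groups, and none of the 8 had enough counts to be tested. The 8 mesenchymal markers summed to 2.95 to 3.22 CPM in Eed KO organoids and 0.526 to 1.11 CPM in WT organoids, with Col3a1 at 0 in both; 1 of the 8, Pdgfra, could be tested and was called higher. The proliferation markers summed to 1552 to 1632 CPM in Eed KO organoids and 1777 to 1876 CPM in WT organoids, with 1 of 6 called lower. The Paneth markers summed to 6615 to 9729 CPM in Eed KO organoids and 3975 to 4639 CPM in WT organoids, with 4 of 6 called higher. Of these calls, those of Mmp7 and Itln1 were lost in the contrast from the fit of 13 libraries. The villus enterocyte markers summed to 4876 to 6048 CPM in Eed KO organoids and 6187 to 8695 CPM in WT organoids, with 2 of 10 called higher and 2 lower. The part of these cell types was not tested.

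Cdx1 had 59.6 and 57.3 CPM in Eed KO organoids, against 155 and 132 CPM in WT organoids. Its libraries were tight within each genotype and far apart between them (log2 -1.29 ± 0.12, edgeR adjusted p = 0.000822). Cdx2, in contrast, had 151 and 157 CPM in Eed KO organoids, against 192 and 209 CPM in WT organoids. The difference was in the same direction but 1.30-fold, and it missed the threshold (log2 -0.38 ± 0.12, edgeR adjusted p = 0.0648). Isx had 68.3 and 71.3 CPM in Eed KO organoids, against 141 and 140 CPM in WT organoids, a 2.01-fold lower level (log2 -1.01 ± 0.11, edgeR adjusted p = 0.00146), a call lost in the contrast from the fit of 13 libraries.

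Hnf4g had 209 and 223 CPM in Eed KO organoids, against 598 and 406 CPM in WT organoids (log2 -1.21 ± 0.19, edgeR adjusted p = 0.00597). The WT libraries differed from each other by about as much as the lower of them differed from the knockouts. Hnf4a had 669 and 867 CPM in Eed KO organoids, against 1054 and 1184 CPM in WT organoids (log2 -0.54 ± 0.17, edgeR adjusted p = 0.0755). Gata4 had 123 and 149 CPM in Eed KO organoids, against 212 and 193 CPM in WT organoids (log2 -0.57 ± 0.14, edgeR adjusted p = 0.0284), and its call was lost under 3 of 10 alternatives. Klf5 had 143 and 165 CPM in Eed KO organoids, against 210 and 217 CPM in WT organoids (log2 -0.47 ± 0.13, edgeR adjusted p = 0.0401), and its call was lost under 5 of 10. Gata6 had 76.8 and 85.5 CPM in Eed KO organoids, against 102 and 102 CPM in WT organoids (log2 -0.34 ± 0.12, edgeR adjusted p = 0.106). Elf3 again differed little, with 274 and 308 CPM in Eed KO organoids, against 300 and 332 CPM in WT organoids. Its 95% interval was -0.43 to 0.19 on the log2 scale.

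A fit of all 13 libraries tested, as an interaction, whether the Eed effect in crypts differed from that in organoids. It called 4.12% of 14761 genes, 2.99% lower and 1.13% higher in crypts, and none of the 9 factors. The largest difference among them was that of Cdx2, whose Eed effect was lower in crypts than in organoids by a log2 difference of -1.63 ± 0.46 (edgeR adjusted p = 0.0746). Isx followed with -1.30 ± 0.63 (edgeR adjusted p = 0.324), then Hnf4g with -0.92 ± 0.40 (edgeR adjusted p = 0.259) and Hnf4a with -0.81 ± 0.33 (edgeR adjusted p = 0.227). Among run 385 libraries alone, which hold all organoids, 4 factors were called for this difference, Cdx1, Cdx2, Hnf4a and Isx. The same 4 without Cdx1 were called when the run 440 Eed KO library or the run 440 WT library was left out, and DESeq2 called Cdx2 in the full set. Crypts were collected after 6 weeks and organoids after 10 days of induction. The organoid groups also differ in strain (C57BL/6-FVB against FVB), while all crypts are of the mixed strain. Tissue, time and strain thus cannot be told apart in this difference.

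Between the WT groups, Hnf4g and Gata4 were higher in organoids, where 28.1% of the 14761 genes were called, 9.17% higher and 18.9% lower. Hnf4g averaged 502 ± 136 CPM in WT organoids (n = 2) and 151 ± 42.2 CPM in WT crypts (n = 3), a log2 fold change of 1.61 ± 0.29 (edgeR adjusted p = 0.00211). Gata4 averaged 203 ± 13.4 CPM in WT organoids and 116 ± 17.0 CPM in WT crypts (log2 1.00 ± 0.31, edgeR adjusted p = 0.0357), and its call was lost in 3 of 10 alternatives. The other 7 were not called, with log2 fold changes between -0.19 (Elf3) and 0.81 (Isx). Every WT organoid library was above every WT crypt library for Hnf4g, Gata4, Gata6 and Isx, as for 22.2% of all genes, and below it for Elf3, as for 34.4%. The villus enterocyte marker sum was 6187 to 8695 CPM in WT organoids and 940 to 2293 CPM in WT crypts, with 6 of 10 called higher. The Paneth marker sum was 3975 to 4639 CPM in WT organoids and 80000 to 100600 CPM in WT crypts, with 6 of 6 called lower. Immune markers (8 of 8) and mesenchymal markers (6 of 8) were called lower as well, and 3 of 6 proliferation markers higher. The part of these cell types in the differences was not tested. In the order of group means, Hnf4g was thus higher in Eed KO organoids, 216 ± 9.94 CPM, than in WT crypts, and the ranges of these groups did not overlap. The WT organoids are FVB and the WT crypts mixed, so strain and culture cannot be told apart.

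Genes known to depend on these factors are set beside the shares over all genes given above for each comparison. Of 9 genes known to depend on Cdx2, Cdh17, the intestinal cadherin, was the one called in Eed KO crypts, where 24.0% of all genes were called. It had 374, 395 and 543 CPM in Eed KO crypts, against 939, 861 and 1107 CPM in WT crypts (log2 -1.15 ± 0.16, edgeR adjusted p = 0.00119). The other 8, such as sucrase-isomaltase (Sis, log2 -1.55 ± 0.72, edgeR adjusted p = 0.161), were not called, and the median over the 9 was -0.87. None of 12 genes known to depend on Hnf4a or Hnf4g was called in Eed KO crypts, with a median of -0.67. These enterocyte genes varied widely between crypt libraries: lactase (Lct) had 1.33, 0.338 and 83.5 CPM in Eed KO crypts, against 47.6, 18.1 and 49.1 CPM in WT crypts. In Eed KO organoids, where 13.5% of all genes were called higher and 4.63% lower, 2 of the 9 Cdx2-dependent genes were called higher, Lct at 115 and 108 CPM against 25.8 and 14.1 CPM in WT organoids, and Mep1a (log2 1.67 ± 0.17, edgeR adjusted p = 0.000963). Of the 12 Hnf4-dependent genes, fatty acid binding protein Fabp1 (log2 -0.98 ± 0.17, edgeR adjusted p = 0.00771) and the lipid transfer gene Mttp (log2 -0.96 ± 0.17, edgeR adjusted p = 0.00937) were called lower in Eed KO organoids. The calls of these 4 genes in organoids were lost in the contrast from the fit of 13 libraries. The median log2 fold change in organoids was 0.16 over the Cdx2-dependent genes and -0.19 over the Hnf4-dependent genes.

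Scarb1, the scavenger receptor that Isx is known to hold down, was higher in Eed KO crypts. It had 42.3, 32.6 and 67.5 CPM in Eed KO crypts, against 7.20, 5.86 and 11.2 CPM in WT crypts (log2 2.55 ± 0.21, edgeR adjusted p = 0.000191). The 3 knockout libraries were all above WT, as for 17.3% of all genes. The run 440 library had the most Isx and the most Scarb1 of them, and among WT libraries Scarb1 was also highest in run 440. Any part of Isx in the rise of Scarb1 was not tested. Bco1, the carotenoid-cleaving enzyme that Isx is known to repress, was not called (log2 0.20 ± 0.30, edgeR adjusted p = 0.667). In organoids Scarb1 had 55.2 and 71.0 CPM in Eed KO libraries, against 19.9 and 37.6 CPM in WT libraries, and missed the threshold (log2 1.14 ± 0.33, edgeR adjusted p = 0.0764).

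Regional genes moved in both directions. Among 6 genes of the proximal small intestine, the iron exporter Slc40a1 (log2 1.94 ± 0.33, edgeR adjusted p = 0.00358) and Cyp27a1 (log2 0.94 ± 0.25, edgeR adjusted p = 0.0275) rose in Eed KO crypts and the ferric reductase Cybrd1 fell (log2 -1.20 ± 0.31, edgeR adjusted p = 0.0236). The call of Cybrd1 was lost under 8 alternatives, the replicate block among them (-1.22, adjusted p = 0.0873), and that of Cyp27a1 under 7. Of 6 ileal genes that Gata4 is known to hold down, none was called in Eed KO crypts, with a median of -1.83. In Eed KO organoids 13.5% of all genes were called higher and 4.63% lower, Gata4 among the latter. There 3 of 5 tested ileal genes were called higher: the hormone Fgf15 (log2 4.43 ± 0.74, edgeR adjusted p = 0.00781), Cubn (log2 3.71 ± 0.67, edgeR adjusted p = 0.0106) and the bile acid transporter Slc10a2 (log2 1.57 ± 0.42, edgeR adjusted p = 0.0434). The bile acid exporter subunit Slc51a was called lower (log2 -0.78 ± 0.20, edgeR adjusted p = 0.0381). The calls of Slc10a2 and Slc51a were each lost under 5 of 10 alternatives and that of Cubn under 3. Fgf15 rested on 136 counts in Eed KO organoids and 6 in WT organoids, and its call was lost in the contrast from the fit of 13 libraries. Any part of Gata4 in these changes was not tested.

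Other transcription factors of the intestinal epithelium were called in both directions. Of 23 such factors, 3 were called higher and 5 lower in Eed KO crypts, beside 13.4% of all genes higher and 10.6% lower, with a median log2 fold change of -0.05. The share called higher was thus near that of all genes. The vitamin D receptor Vdr had 59.2, 57.2 and 214 CPM in Eed KO crypts, against 733, 581 and 394 CPM in WT crypts (log2 -2.66 ± 0.50, edgeR adjusted p = 0.0056; with the block -2.68 and adjusted p = 0.0566). The nuclear receptor Nr5a2 had 10.9, 12.3 and 16.3 CPM in Eed KO crypts, against 55.1, 44.4 and 42.5 CPM in WT crypts (log2 -1.85 ± 0.22, edgeR adjusted p = 0.000645). The lipid-sensing receptor Ppara was called lower (log2 -1.89 ± 0.59, edgeR adjusted p = 0.0494), a call lost in 11 of 15 alternatives (with the block adjusted p = 0.174), and its relative Pparg was called higher (log2 1.70 ± 0.22, edgeR adjusted p = 0.00106). In Eed KO organoids 4 of the 23 were called higher and 6 lower, beside 13.5% of all genes higher and 4.63% lower, with Maf (log2 2.60 ± 0.19, edgeR adjusted p = 0.000331) and Klf4 (log2 1.18 ± 0.20, edgeR adjusted p = 0.00838) higher and Ppara (log2 -1.10 ± 0.19, edgeR adjusted p = 0.00835) and Vdr (log2 -0.95 ± 0.24, edgeR adjusted p = 0.0449) lower. The organoid call of Vdr was lost under 5 alternatives, and that of Ppara in the contrast from the fit of 13 libraries. In Ezh2 KO crypts no gene of any of these lists was called.

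Factors of other lineages rose in the same libraries. Of 32 such factors 28 were in both tables and 23 could be tested in crypts, and 21 of these were called higher in Eed KO crypts and none lower. They passed the filter on low counts mainly through the Eed KO libraries, so this count describes them and is no test of the list. The posterior homeobox factor Hoxb13 had 50.8, 51.6 and 79.4 CPM in Eed KO crypts, against 0 counts in every WT crypt library, at least 806-fold higher against a floor of 3 counts over the group. The neural factor En2 was at least 454-fold, the endoderm factor Sox17 at least 423-fold and the neural factor Sim2 at least 409-fold higher on the same floor. In Eed KO organoids 18 of 19 tested factors of this list were called higher, beside 13.5% of all genes. They too passed the filter mainly through the Eed KO libraries, so this count is no test either. Hoxb13 had 12.1 and 23.6 CPM in Eed KO organoids and 0 counts in WT organoids. Paralogues of the 9 were called in both directions. Gata3, a factor of T cells and skin, had 3.51, 2.37 and 2.94 CPM in Eed KO crypts, against 0.267, 0.275 and 0.184 CPM in WT crypts (log2 3.59 ± 0.52, edgeR adjusted p = 0.00162). Gata2, a blood and endothelial factor, had 293 counts over the Eed KO crypt libraries and 2 over the WT crypt libraries. Of 14 tested paralogues 3 were called higher in Eed KO crypts, Gata2, Gata3 and Klf12 (whose call was lost under 10 of 15 alternatives), and 3 lower. Of all genes 13.4% were called higher and 10.6% lower, and the median log2 fold change of the paralogues was -0.15. Klf17, among those called lower, had 1 count over the Eed KO crypt libraries and 44 over the WT crypt libraries. The WT crypt libraries ranged from 0 to 2.57 CPM for it. Its call was lost without the run 440 Eed KO library, without the run 440 WT library and without the run term. Of 11 stomach genes 5 could be tested, which also passed the filter mainly through the Eed KO libraries, and 4 of these were called higher, among them Tff2, a peptide of gastric mucous cells, with 38.2, 28.5 and 48.1 CPM in Eed KO crypts, against 0.178, 0.0916 and 0.0613 CPM in WT crypts (log2 8.42 ± 0.46, edgeR adjusted p = 3.53e-05).

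**Figure D4:**
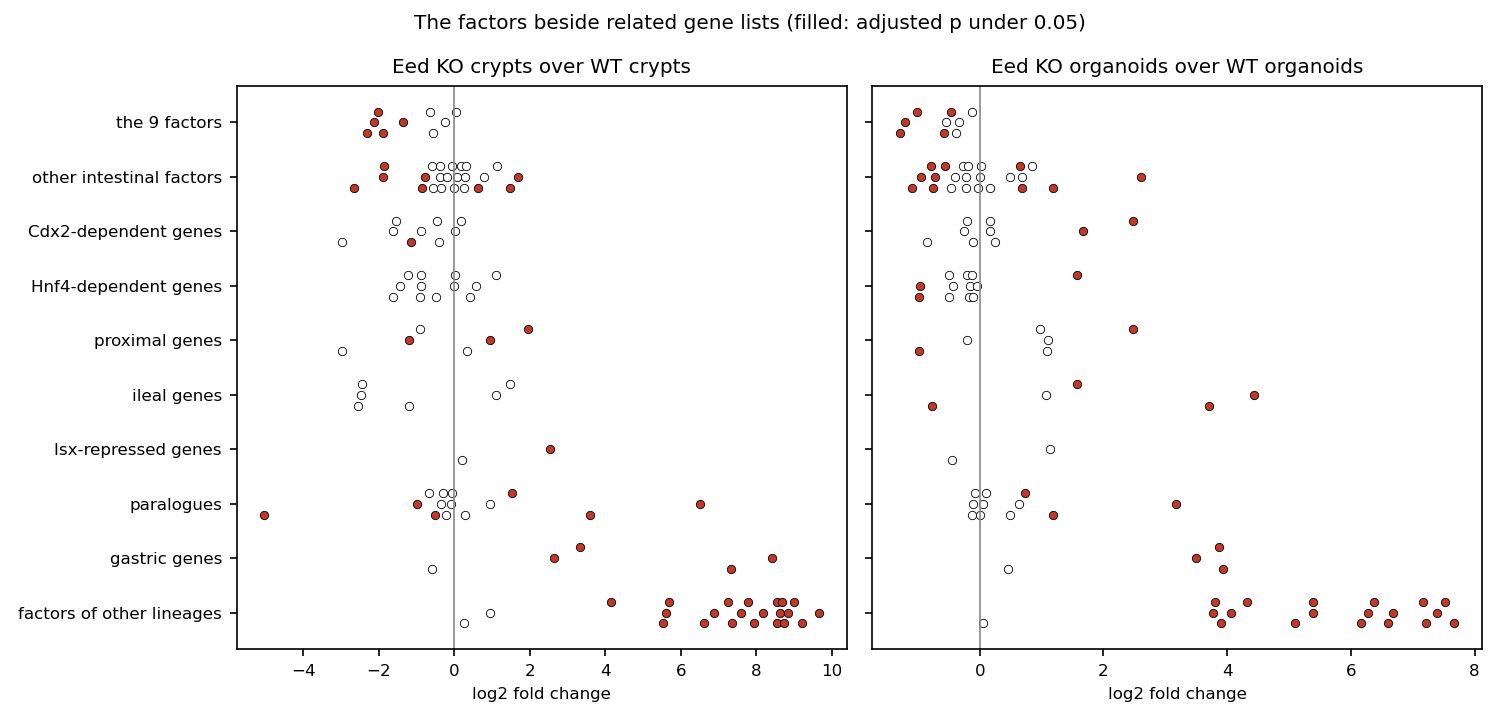
Log2 fold change (x axis) of every tested gene of the 9 factors and of 9 related lists (rows), for Eed KO over WT crypts and Eed KO over WT organoids; filled points have an adjusted p under 0.05. Genes with 3 or fewer counts in the WT group are drawn at their fold over a floor of 3 counts, and Klf17, with 1 count in Eed KO crypts, at its fitted value. The 9 factors lie between -2.31 and 0.06 in crypts, while 21 of 23 factors of other lineages are filled points on the right. The factors of other lineages passed the filter on low counts mainly through the Eed KO libraries, so their count is no test of the list.

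In the order of group means in CPM, Ezh2 KO crypts were the highest group for Cdx1, Cdx2 and Hnf4a, and their range lay clear of the next group's. WT organoids were the highest for Hnf4g, Gata4, Gata6, Klf5 and Isx, also with no overlap with the next group. For Klf5 they did overlap WT crypts, which ranged from 116 to 230 CPM, against 210 to 217 CPM in WT organoids. The share of all genes with such gaps in the order of 5 groups was not computed. Eed KO crypts were the lowest group for every factor but Elf3, clear of the next group for Cdx2, Hnf4g and Isx. For Elf3 they were the highest and each group overlapped its neighbour in the order, from 409 ± 135 CPM in Eed KO crypts (n = 3) to 291 ± 24.2 CPM in Eed KO organoids (n = 2).

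The 9 factors did not vary as 1 unit over the 13 libraries. Pearson's r of log2 CPM, given as a description because libraries of a group share genotype, run and depth, was 0.984 between Cdx2 and Isx, 0.971 between Gata4 and Gata6 and 0.966 between Cdx2 and Hnf4a. Elf3 stood apart, with r between -0.491 (Hnf4g) and 0.262 (Klf5) to the other 8. Over the 14761 genes tested, the genes most like each factor in this measure were Cpsf4 (0.992) and Pycard (0.991) for Cdx1, Cdca5 (0.988) and Isx for Cdx2, and Pde3a (0.992) and Aldh1b1 (0.982) for Hnf4a. They were Pdss1 (0.976) and Anxa13 (0.974) for Hnf4g, Pex5 (0.966) beside Gata6 for Gata4, and Ppara (0.97) beside Gata4 for Gata6. For Klf5 they were Zcchc14 (0.943) and Sp2 (0.929), for Elf3 Golga2 (0.928) and Tsc2 (0.921), and for Isx, beside Cdx2, Bub1b (0.976).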

How the data were processed

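Poly(A) RNA of 13 libraries (TruSeq Stranded mRNA, per the labels' protocols) was quantified by the authors, who deposited raw read counts per gene in 2 tables, run 385 and run 440. The submitters' processing notes name TopHat2 2.0.12, Bowtie 0.12.9, HTSeq, DESeq2 and GRCm38. The sources used here do not say whether counting used strand. The tables list 23969 and 22634 genes and were joined on 21420 shared identifiers; counts outside these were at most 0.196% of a library. Exon lengths and overlaps came from GENCODE M21.

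The 9 factors and all lists were chosen with earlier results of these data known. All members are named in every comparison; of other lists, counts, medians and up to 4 called genes of largest fold change; a few further genes were named after their values were seen. Some results are not reported here. Genes were filtered with edgeR 4.0.16 (filterByExpr, 10 counts, 15 in total) under R 4.3.3, scaled by TMM and tested with quasi-likelihood F tests: 9 crypt libraries with run as a term (5 residual degrees of freedom), 4 organoid libraries (2), and 13 libraries with run (7). Fits were tested on simulated counts with a common spread for all genes and no run effect, so the shares may not hold for these libraries. Of log2 changes of 1 in size, 79% were recovered for Eed KO against WT crypts. The share was 57% for Eed KO against WT organoids and 60% for WT organoids against WT crypts. Of log2 changes of 2 in size, 97%, 97% and 94% were recovered in the same order. CPM precision is limited by depth; intervals cover the spread between libraries.

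Deviations of same-numbered Eed KO and WT crypt libraries from their group means had correlations of 0.166, 0.36 and 0.329, all above 0.1. The numbers were therefore taken as pairs in a blocked fit. Run means were not removed there, so a shared run alone could give such values. With run means removed, both run 385 pairs had 0.145 and both crossed pairs -0.145, a mirror that 2 libraries per group force. These correlations therefore cannot decide whether the libraries are paired, and the blocked fit is an alternative only. The pairing comes from the title numbers within each run, which the labels do not tie to a litter or day, and Eed KO run 385 library 1 correlated more with WT library 2 (0.35). Alternatives were DESeq2 1.42.0, RLE and total-count scaling, no filter, no run term, each run alone, the replicate block and leaving out each library.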

Additional observations from a re-analysis of the deposited data

How the results depend on the processing

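The 17 called values of the 9 factors kept their sign under every alternative run. Over all comparisons 666 alternative values were computed for the 9 factors; 568 kept direction and side of the threshold, 29 lost and 32 gained a call, and 37 changed sign, all of values that were not called. Leaving out 1 library moved the number of factors called lower to between 4 and 7 in Eed KO against WT crypts, 0 and 2 in Ezh2 KO against WT crypts, 3 and 7 in Eed KO against Ezh2 KO crypts, 3 and 6 in Eed KO against WT organoids, and 0 and 3 for the difference of the Eed effects; the number called higher in WT organoids against WT crypts moved to between 1 and 4. In run 440 alone, with the spread taken from the Ezh2 KO libraries, 1 factor (Cdx1) was called lower in Eed KO against WT crypts (1 library against 1) and 1 (Elf3) higher in Eed KO against Ezh2 KO crypts (1 against 3). For the difference of the Eed effects run 385 alone called 4 and DESeq2 1. In organoids 2 were called lower by the contrast from the fit of 13 libraries and 8 with the replicate block; that block changed 5 to 8 with 2 pairs whose correlation was 0.259, and the numbers there are no more than numbers. Total-count scaling raised the log2 fold changes of the factors in Eed KO against WT crypts by a median of 0.21, against 0.02 or less in size for RLE factors, with the same 5 called; the block in crypts took the call of Isx and of no other of the 9.

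Changes of sign, in log2 fold change, were these. In Eed KO against WT crypts, run 440 alone gave 0.35 for Gata4, 0.21 for Gata6, 0.60 for Klf5 and 0.29 for Ppara, run 385 alone gave -0.28 for Elf3, and leaving out 1 library gave -0.69 to 0.051 for Klf5 and -0.32 to 0.26 for Elf3. In Ezh2 KO against WT crypts, run 440 alone gave 0.22 for Cdx1, 0.39 for Cdx2, 0.24 for Gata4, 0.32 for Gata6, 0.12 for Elf3 and 0.62 (0.615) for Isx; no run term gave 0.68 for Cdx1, 0.28 for Cdx2, -0.053 for Hnf4g, 0.20 for Gata4, 0.13 for Gata6 and 0.34 for Isx; total counts gave 0.013 for Cdx1; leaving out 1 library gave -0.56 to 0.15 for Hnf4a and -0.34 to 0.45 for Klf5. In Eed KO against Ezh2 KO crypts, run 440 alone gave 0.11 for Gata4, and leaving out 1 library gave -0.44 (the run 440 Eed KO library) to 0.40 for Elf3. For the difference of the Eed effects, total counts gave 0.058 for Gata4, run 385 alone -0.14 for Klf5 and -0.13 for Elf3, and leaving out 1 library gave -0.5 to 0.32 for Gata4, -0.57 to 0.024 for Gata6, -0.14 to 0.57 for Klf5 and -0.13 to 0.42 for Elf3. In WT organoids against WT crypts, run 385 alone gave -0.003 for Cdx2. The cause of these changes was not tested. With 2 or 3 libraries a group, the spread between libraries limits what could be called.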
